A study of Mus musculus with 24 samples.

Results

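Transcript levels in the colon of ApcMin mice that had received ATB-346, a hydrogen sulfide-releasing NSAID, were compared with those of ApcMin mice that had received vehicle alone. The comparison used 14 of the 24 arrays of the study, 6 labelled ApcMin ATB-346 and 8 labelled ApcMin vehicle, chosen by their labels alone. ApcMin mice carry a truncating mutation in 1 copy of Apc, the tumour suppressor that limits beta-catenin, and are a model of intestinal tumour formation on the C57Bl/6 strain. All mice were dosed once daily by oral gavage for 7 days from 6 weeks of age, the controls with the vehicle itself (0.05% DMSO and 0.95% carboxymethylcellulose) and the treated mice with ATB-346 at 14.5 mg/kg. The tissue was taken when the mice were 14 weeks old, so the arrays measured it 7 weeks after dosing had ended. The remaining arrays were 6 of ApcMin mice given naproxen, an NSAID without hydrogen sulfide release, at 10 mg/kg, and 4 of wild-type C57Bl/6 mice given vehicle. The labels do not say which stretch of colon was taken, whether tumours were included, or whether every array had an animal of its own, so the p-values measure only the spread between arrays, and this spread may be partly technical.

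NSAIDs act by blocking the cyclooxygenases Ptgs1 and Ptgs2, which make prostaglandins from arachidonic acid. Hydrogen sulfide is made in the gut epithelium and its bacteria and is oxidised in mitochondria, where at high levels it blocks the respiratory chain. In the Wnt pathway, Apc is part of a complex that marks beta-catenin for destruction. When Apc is lost, beta-catenin drives transcription with Tcf factors, and Ccnd1, which encodes cyclin D1, is a long-described target.

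Values are normalized intensities on the log2 scale, given as mean ± SD between arrays, and differences are ATB-346 minus vehicle in log2 units with their standard error (SE). An offset added before the log makes differences of dim targets smaller than they are on a linear scale. Replicates 1 to 4 of every group formed a first cohort and replicates numbered 5 and above a second, with 4 vehicle and 2 ATB-346 arrays in the second. Cohort names here only a range of replicate numbers: the labels do not say what set the numbers apart. In the linear model, fitted with limma to all 24 arrays, the cohort entered as a block. It was called as shifted at an adjusted p under 0.05 for 3358 of 9048 targets tested (37.1%). The raw median intensity of an array lay between 81.4 and 102.9, and the correlation between any 2 of the 14 arrays lay between 0.93 and 0.99. The colonocyte list, which checks the labelled tissue, had means of 11.46 to 11.87 on the vehicle arrays and 11.39 to 11.88 on the ATB-346 arrays, on 15 tested members. Apc was at 6.63 ± 0.13 (SD, n = 8) with vehicle and 6.59 ± 0.15 (n = 6) with ATB-346. A point mutation does not show in such a level.

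ATB-346 and vehicle arrays differed at 28 of 9048 targets (0.309%) at a Benjamini-Hochberg adjusted p under 0.05, 17 higher with ATB-346 (0.188%) and 11 lower (0.122%). At an unadjusted p under 0.05 the counts were 714 higher (7.89%) and 498 lower (5.5%). The falls included Gsdmc2 and Gsdmc3 of the gasdermin family, Ccnd1, the actin-capping gene Capza1 and the leukocyte genes Fcer1g, Dok2 and Arhgdib. The rises included Tmem209, Fnip1, Tmem192 and the mitochondrial genes Ndufb5, Mccc1, Nfu1 and Fbxl4. All 28 had the same direction in both cohorts, which each enter that fit. In 17 of the 28, no ATB-346 array overlapped the vehicle arrays of its own cohort, against 82 of 9048 targets (0.906%). In 4, the 6 ATB-346 arrays lay outside the range of all 8 vehicle arrays, against 19 of 9048 (0.21%). These were Capza1 below and Mcrs1, Lrrc40 and Tmem192 above. The 28 were picked by a fit to the same arrays, so their separation is not added evidence of a difference.

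**Figure D1:**
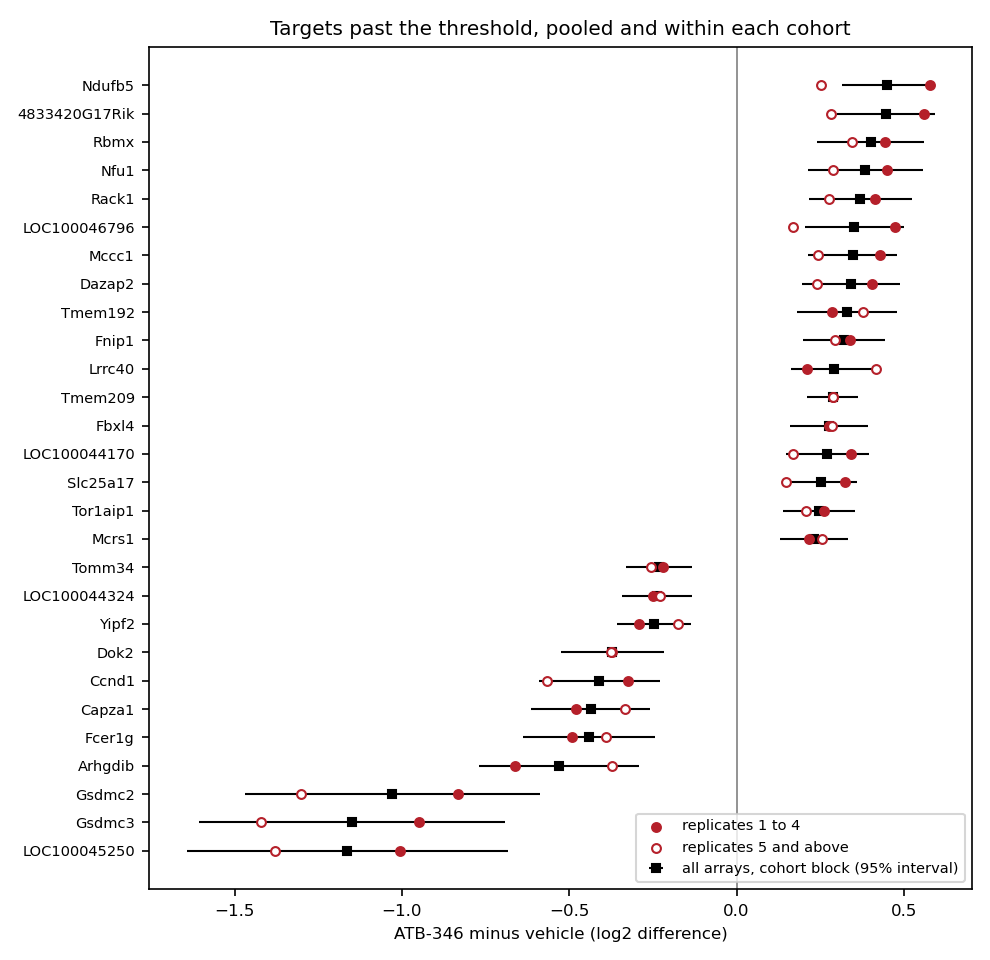
Each row is 1 of the 28 targets past the threshold, with the log2 difference between ATB-346 and vehicle on the horizontal axis. Black squares with lines are the value from all arrays with its 95% interval, filled red points the value within replicates 1 to 4, and open points that within replicates 5 and above. Every row has its 3 symbols on the same side of 0, and the gasdermin C targets lie farthest from it.

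The number of calls depended on the arrays and the block. Without the cohort block 0 targets were called (limma, smallest adjusted p = 0.135) and 632 (6.98%) had an unadjusted p under 0.05. Within the first cohort 17 were called (0.188%) and within the second, with 2 ATB-346 arrays, 0, with 476 (5.26%) at an unadjusted p under 0.05. A test of whether the difference itself changed between cohorts called 0 targets, with 366 (4.05%) at an unadjusted p under 0.05. Leaving out vehicle replicate 2, 3 or 5 or ATB-346 replicate 1 left 3 calls, vehicle replicate 4 left 4, and ATB-346 replicate 4 left 5. Vehicle replicate 6 or ATB-346 replicate 2 left 7, ATB-346 replicate 5 left 9 and vehicle replicate 7 left 10, while leaving out any one of the other 4 arrays left 23 to 34. Of the 23 named genes described here, Tmem209 and Ndufb5 kept their call in all 14 of these fits, and none changed direction. With arrays scaled to 1 median in place of quantiles, 8 targets were called higher and 0 lower. That scaling gave 67.4% of all targets a higher mean with ATB-346, against 54.2% with quantiles. The first target outside the threshold was close to it: Hspa8, a heat shock chaperone, differed by -0.51 ± 0.11 (adjusted p = 0.0527).

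Genes of the gasdermin C cluster had the largest differences among the called targets. Gasdermins are proteins whose cleaved N-terminal part forms pores in membranes, and the C genes, which lie side by side on mouse chromosome 15, are known for their activity in the intestinal epithelium. Gsdmc3 was at 10.05, 10.49, 10.75 and 9.98 on the first 4 vehicle arrays and at 10.25, 9.67, 10.10 and 10.48 on the second 4. With ATB-346 it was at 9.06, 8.80, 9.30 and 10.31 in the first cohort and at 8.71 and 8.71 in the second. So 5 of 6 ATB-346 arrays lay below every vehicle array, and replicate 4 lay within their range. The difference was -1.15 ± 0.22 (SE, adjusted p = 0.041), with -0.95 in the first cohort and -1.42 in the second.

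Gsdmc2 was at 12.21 ± 0.55 with vehicle (11.41 to 13.06) and at 11.18 ± 0.23 with ATB-346 (10.91 to 11.52). All but 1 ATB-346 array lay below the lowest vehicle array, and the difference was -1.03 ± 0.21 (adjusted p = 0.0426). A further called target with a predicted name, LOC100045250, fell by 1.16. It carries the values of a probe that the platform annotation assigns to Gsdmc2, and it is named here outside the rule for named genes. In the probe table the differences of the 3 Gsdmc2 probes lay between -1.16 and -0.95. The genes of this cluster are closely similar copies, so a probe may read more than 1 of its genes, and the calls are not independent of each other.

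The rest of the family was measured less clearly. Gsdmd, the gasdermin cleaved by inflammatory caspases, was at 9.88 ± 0.15 with vehicle and 9.63 ± 0.30 with ATB-346, a difference of -0.24 that did not pass (adjusted p = 0.369). Gsdme had a difference of 0.28 ± 0.37, with levels from 8.04 to 9.94 within the vehicle group alone. Of 8 gasdermin targets on the array 4 were tested, with a median difference of -0.64 against 0.01 over all targets. Wild-type colon had Gsdmc3 at 10.03 ± 0.47 (n = 4) and Gsdmc2 at 11.63 ± 0.17, and naproxen colon had them at 9.49 ± 0.45 and 11.57 ± 0.39.

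The bases before the start of Gsdmc3 are shown because its target had the largest fall among the called targets with a named gene. They are RefSeq sequence of GRCm38.p6, chr15:63878559-63878678 on the minus strand, printed 5′ to 3′ up to the base before the annotated start. The capitals mark TATANAA, the letters of a TATA box, found with its first base 29 bases before the start.
Gsdmc3: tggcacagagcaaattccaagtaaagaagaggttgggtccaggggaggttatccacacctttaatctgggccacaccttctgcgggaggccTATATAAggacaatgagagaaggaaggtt
The same letters occur on either strand in 3728 of 32851 RefSeq promoter windows of 300 bases (11.3%), each from 250 bases before to 50 after a start. The match describes the sequence, not a site shown to be used.

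Ccnd1, the D-type cyclin that activates Cdk4 and Cdk6 in G1, fell. It was at 10.52, 10.61, 10.46 and 10.68 on the first 4 vehicle arrays and at 10.60, 10.69, 10.57 and 10.62 on the others, a narrow range. With ATB-346 it was at 10.05, 10.49, 10.39 and 10.05 in the first cohort and at 10.25 and 9.86 in the second. All but 1 lay below every vehicle array, the exception being replicate 2 at 10.49. The difference was -0.41 ± 0.09 (SE, 95% interval -0.59 to -0.23, adjusted p = 0.0462), and the differences of the 3 Ccnd1 probes lay between -0.44 and -0.33. None of these probes passed the threshold in the fit to probe values (limma, adjusted p from 0.0545 to 0.19). The Ccnd1 call was lost in 12 of the 14 fits that left out 1 array, with differences from -0.47 to -0.32.

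No other member of the surrounding lists passed the test. Among 13 tested G1 cyclins, kinases and inhibitors, 1 was called and 8 had a lower mean, with a median difference of -0.04. Over all targets 0.122% were called lower and 45.8% had a lower mean. Ccnd3, the cyclin D of lymphoid and differentiating cells, was at 9.14 ± 0.09 with vehicle and 8.98 ± 0.17 with ATB-346 (difference -0.17, adjusted p = 0.311). Cdkn1a, which encodes the inhibitor p21, differed by 0.22 ± 0.12 (adjusted p = 0.481). The 9 tested Wnt targets and stem cell genes had a median of -0.03, with Ccnd1 the 1 call. Axin2, a feedback target of beta-catenin, differed by -0.12 ± 0.10 and Lgr5, the receptor that marks intestinal stem cells, by 0.03. Myc lay too close to the lowest normalized value of 5.65 to be tested, at 6.09 ± 0.07 and 6.08 ± 0.06.

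The destruction complex list held 9 tested members with a median of -0.01 and 0 calls. Ctnnb1, beta-catenin itself, differed by 0.15 ± 0.07 (adjusted p = 0.349). Its levels differed more between the cohorts, at 10.88 to 11.05 and 11.68 to 12.03 on the vehicle arrays, 11.19 to 11.42 and 11.78 to 11.82 on the ATB-346 arrays. The ATB-346 arrays were all higher in the first cohort and within the vehicle range in the second. Gsk3b, a kinase of the complex, differed by -0.17 ± 0.09 (adjusted p = 0.413). The S phase and mitosis list, with 18 tested members, had a median of 0.07 and 0 calls, and its sign turned between the cohorts (0.21 in the first, -0.09 in the second).

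**Figure D2:**
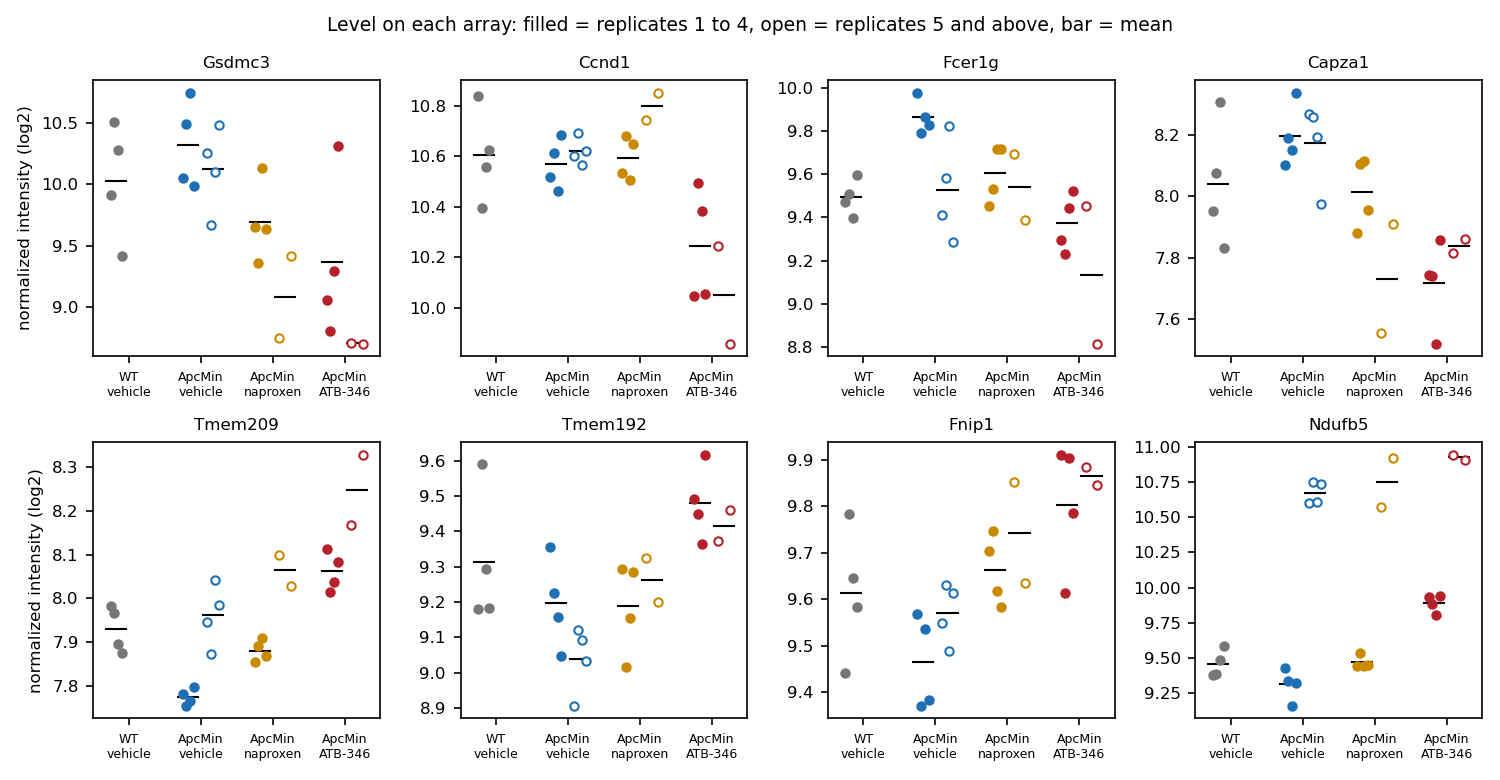
The vertical axis of each panel is the normalized intensity (log2) of 1 gene, and the 4 groups stand side by side, with 1 point per array. Filled points are replicates 1 to 4, open points replicates 5 and above, and black bars the mean of each set. Ccnd1 is at 10.46 to 10.69 on the vehicle arrays and reaches down to 9.86 with ATB-346, while Ndufb5 is over 1 unit higher in the second cohort of each ApcMin group.

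Fcer1g, Dok2 and Arhgdib, genes expressed mainly in leukocytes, fell. Fcer1g, the signalling chain shared by Fc receptors of myeloid cells, was at 9.98, 9.79, 9.86 and 9.83 on the first 4 vehicle arrays and at 9.29, 9.23, 9.44 and 9.52 on the first 4 ATB-346 arrays. The second vehicle arrays were at 9.41, 9.58, 9.82 and 9.29 and the second ATB-346 arrays at 9.45 and 8.82. The groups separated in the first cohort and overlapped in the second. The difference was -0.44 ± 0.10 (adjusted p = 0.0474). In whole colon, fewer cells of a type and less RNA per cell cannot be told apart.

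Dok2, an adaptor that damps tyrosine kinase signalling in blood cells, fell by 0.37 ± 0.07 (adjusted p = 0.0426). It was dim, at 6.82 ± 0.18 with vehicle and 6.48 ± 0.22 with ATB-346. The ATB-346 mean lay under the filter level of 6.54, so Dok2 passed the filter through other arrays. Arhgdib, a signalling regulator of haematopoietic cells, was at 8.27 ± 0.34 (7.90 to 8.74) with vehicle and 7.77 ± 0.20 (7.54 to 8.07) with ATB-346, a difference of -0.53 ± 0.12 (adjusted p = 0.0474). The ranges of Arhgdib overlapped. In the first cohort the ATB-346 arrays with the highest value of Arhgdib and of Dok2 were the same, replicate 4.

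Macrophage and monocyte markers leaned the same way. Of 19 tested members, 15 had a lower mean with ATB-346, 8 of them at an unadjusted p under 0.05, and Fcer1g was the 1 call. Over all targets 45.8% had a lower mean, and 5.5% were lower at that p. The median difference was -0.22, with -0.23 in the first cohort and -0.19 in the second. Aif1, which encodes the macrophage protein Iba1, differed by -0.26 ± 0.08 and C1qa, a complement subunit made by tissue macrophages, by -0.25 ± 0.09 (adjusted p = 0.162 and 0.196). Cd163, a scavenger receptor of resident macrophages, went the other way, by 0.29. Csf1r, Ctsb and Ctsd were higher in mean too, by 0.05, 0.09 and 0.09. Adgre1, Mrc1 and Ms4a7 differed by only -0.08, -0.07 and -0.02. These genes and Cd163 are named outside the rule for named genes. The mean of the list on single arrays overlapped between the groups, at 8.82 to 9.20 with vehicle and 8.63 to 9.12 with ATB-346.

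MHC class II molecules present peptides to helper T cells, and their genes share a promoter module bound by the complex that recruits the coactivator Ciita. Of 12 tested members, 11 had a lower mean with ATB-346 and 8 of these an unadjusted p under 0.05, but 0 passed the adjusted threshold (smallest adjusted p = 0.196). The shares over all targets were 45.8% and 5.5%. The median difference was -0.32. The ATB-346 mean of H2-Oa, 1 of the 12, lay under the filter level, so this gene passed through other arrays. H2-Eb1, a beta chain, was at 10.81 ± 0.33 with vehicle and 10.46 ± 0.22 with ATB-346, a difference of -0.38 ± 0.13. H2-Ab1, the other beta chain, differed by -0.38 and Ciita by -0.39 (adjusted p = 0.203 and 0.196). Both beta chains and the coactivator thus had similar differences, without a call.

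Among the accessory genes, H2-DMb2 differed by -0.52 and H2-DMa by -0.25, both chains of the editor that loads peptides, while H2-DMb1 differed by -0.21. H2-Ob and H2-Oa, chains of the inhibitor of that editor found mostly in B cells, differed by -0.44 and -0.29. The invariant chain gene Cd74 differed by -0.34. Ifi30, a thiol reductase of the pathway, differed by -0.10, the alpha chain H2-Aa by -0.08, and the protease Ctss by 0.28. H2-Aa and Ctss stood apart from the other members in their cohort shift too, being 1.20 and 1.54 higher in the second cohort.

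The difference lay mostly in the first cohort and in a few vehicle arrays. The class II median was -0.51 in the first cohort and -0.11 in the second. Array means of the list were 9.53 and 9.32 on vehicle replicates 1 and 2, and 8.77 to 9.17 on the other vehicle arrays. The ATB-346 arrays lay between 8.50 and 9.03, and the wild-type arrays between 8.81 and 9.00.

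B cell markers were high on the same vehicle arrays. Only 4 of the 13 targets of this list were tested, since the filter is on the mean over all arrays and members such as Ms4a1 and Pax5 lay under it. The tested members are thus those with high values on some arrays, and the mean of 1 of the 4 with ATB-346, that of Ltb, lay under the filter level. Their median of -0.48 is given as a description. Fcmr, the IgM receptor of B cells, was at 9.93 and 9.30 on vehicle replicates 1 and 2, at 6.03 to 8.20 on the other 6 and at 6.22 to 7.62 with ATB-346. The list mean was 9.02 and 8.68 on those 2 vehicle arrays, 6.75 to 7.79 on the others and 6.88 to 7.56 with ATB-346. With vehicle replicates 1 and 2 both left out, the B cell median was -0.14, the class II median -0.13 and the macrophage median -0.15. Then 5 targets were called in place of 28, and Fcer1g, Dok2 and Arhgdib differed by -0.41, -0.35 and -0.38 (adjusted p = 0.207, 0.141 and 0.226).

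**Figure D3:**
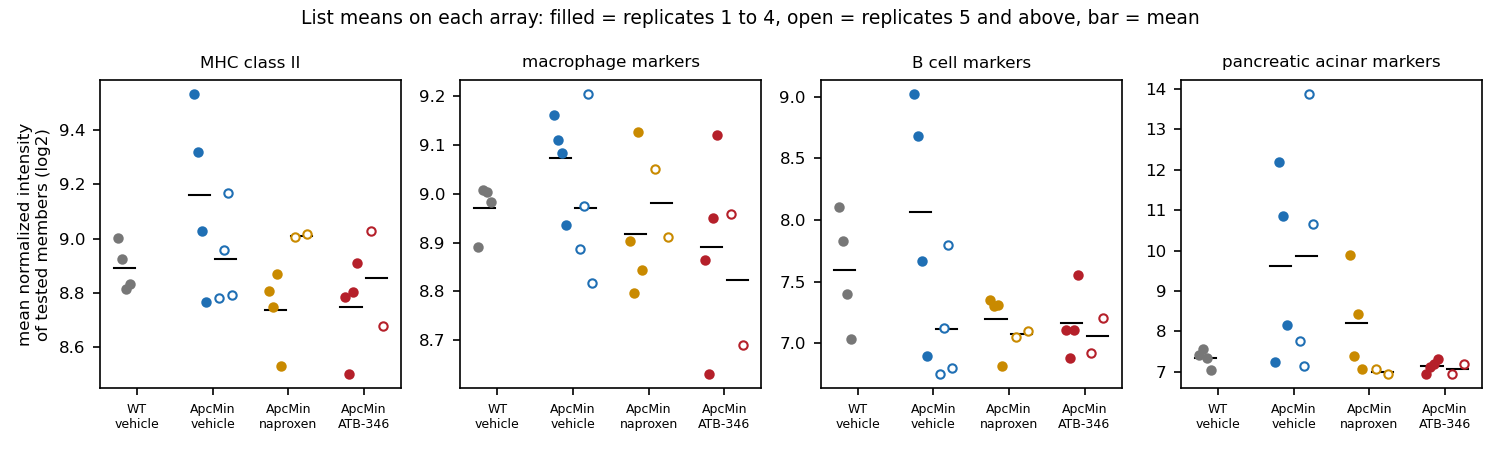
Each panel gives the mean normalized intensity (log2) of the tested members of 1 list on each array, with filled points for replicates 1 to 4, open points for replicates 5 and above and bars for means. Vehicle replicates 1 and 2 are the highest points for MHC class II (9.53 and 9.32) and for B cell markers (9.02 and 8.68). The acinar means spread from 7.14 to 13.87 with vehicle and lie between 6.94 and 7.31 with ATB-346.

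Bases before 3 class II genes are shown because their promoter windows hold CTGATTGG, the letters searched for as the Y box of the module. Only exact matches were counted, so a Y box spelled otherwise would be missed. The sequences are RefSeq, GRCm38.p6, 120 bases up to the base before the start, and the capitals mark CTGATTGG. H2-Aa lies at chr17:34287824-34287943 on the minus strand, H2-Eb1 at chr17:34305747-34305866 and H2-Oa at chr17:34092259-34092378 on the plus strand.
H2-Aa: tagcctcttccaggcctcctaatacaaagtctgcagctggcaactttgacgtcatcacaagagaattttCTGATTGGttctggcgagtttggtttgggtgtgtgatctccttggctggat
H2-Eb1: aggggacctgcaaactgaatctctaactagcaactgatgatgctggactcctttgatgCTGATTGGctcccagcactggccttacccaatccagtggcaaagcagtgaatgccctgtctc
H2-Oa: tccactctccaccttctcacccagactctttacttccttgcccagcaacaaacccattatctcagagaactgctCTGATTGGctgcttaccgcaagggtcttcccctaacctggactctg
The letters began 51, 62 and 46 bases before the start. Of the 12 tested members 9 had a window in the table, and 3 of them held these letters on either strand, against 1346 of 32851 windows (4.1%). The differences of the genes that hold them ran from -0.08 for H2-Aa to -0.38 for H2-Eb1, so the letters did not go with 1 size of difference.

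MHC class I genes, which present peptides from inside the cell, showed smaller differences. Of 10 tested members 9 had a lower mean (45.8% over all targets), with a median of -0.15 and 0 calls. Tapbp, which loads class I molecules, was at 8.25 ± 0.19 with vehicle and 7.95 ± 0.22 with ATB-346 (difference -0.33, adjusted p = 0.163). The class I median was -0.21 in the first cohort and 0.01 in the second. Chemokines and their receptors had a lower mean in 15 of 17 tested members (45.8% over all targets), a median of -0.12 and 0 calls. In 3 of the 17 the ATB-346 mean lay under the filter level, so these passed through other arrays. Cx3cl1, an epithelial ligand of the macrophage receptor Cx3cr1, differed by -0.40 ± 0.11 (adjusted p = 0.134), with -0.60 in the first cohort and -0.09 in the second. T and NK cell markers had a median of -0.05 over 9 tested members, 1 of them with an ATB-346 mean under the filter level. Plasma cell markers had a median of -0.16 over 7.

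Capza1, the alpha subunit of the protein that caps the growing end of actin filaments, had the clearest separation among the falls. It was at 8.10, 8.19, 8.15 and 8.34 on the first 4 vehicle arrays and at 8.27, 8.26, 8.19 and 7.97 on the others. With ATB-346 it was at 7.75, 7.74, 7.52 and 7.86 in the first cohort and at 7.82 and 7.86 in the second. No array of one group reached the other. The difference was -0.44 ± 0.09 (adjusted p = 0.0426), and Capza1 was not called for a cohort shift. The naproxen mean was 7.92 ± 0.20 and the wild-type mean 8.04 ± 0.20.

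Tomm34, a cochaperone of proteins bound for mitochondria, and Yipf2, a Golgi membrane protein, fell by smaller amounts. Tomm34 fell by 0.23 ± 0.05 (adjusted p = 0.0426) and its arrays separated in each cohort. Yipf2 fell by 0.25 ± 0.05 (adjusted p = 0.0474) and separated in the first cohort only. Their cohort shifts were -0.24 and -0.28, and the pooled ranges overlapped.

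Tmem209, a protein of the nuclear envelope, had the smallest p of the comparison. It was at 7.78, 7.75, 7.77 and 7.80 on the first 4 vehicle arrays and at 8.11, 8.01, 8.04 and 8.08 on the first 4 ATB-346 arrays. In the second cohort vehicle arrays were at 7.95, 7.87, 8.04 and 7.98 and ATB-346 arrays at 8.17 and 8.33. Both cohorts separated without overlap and with the same difference, 0.29. The pooled difference was 0.29 ± 0.04 (adjusted p = 0.000821), and both Tmem209 probes were higher, by 0.31 and 0.32. The interval of the fit ran from 0.21 to 0.36, so the change was small. The groups separated only within cohorts. Across cohorts, the highest vehicle array, at 8.04, lay above the lowest ATB-346 array, at 8.01.

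Fnip1 and Tmem192 belong to the lysosome, where nutrient signals are read. Fnip1, the partner of folliculin in the control of mTORC1, rose by 0.32 ± 0.06 (adjusted p = 0.0348), from 9.52 ± 0.10 to 9.82 ± 0.11. Tmem192, a membrane protein of lysosomes, was at 9.36, 9.23, 9.16, 9.05, 8.91, 9.12, 9.09 and 9.03 on the vehicle arrays and at 9.49, 9.45, 9.37, 9.62, 9.37 and 9.46 on the ATB-346 arrays. The groups did not overlap, although the highest vehicle array came close to the lowest ATB-346 array. The difference was 0.33 ± 0.07 (adjusted p = 0.0474). Of 22 tested genes of the folliculin and lysosome list, 16 had a higher mean, with 2 calls and a median of 0.06. Over all targets 54.2% had a higher mean and 0.188% were called higher. Flcn itself, folliculin, differed by 0.18 and Lamtor2, a subunit of the lysosomal anchor of mTORC1, by 0.17, neither past the threshold.

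Mcrs1 and Lrrc40 were the other rises without overlap. Mcrs1, a subunit of chromatin complexes, was at 7.27 to 7.62 with vehicle and 7.69 to 7.84 with ATB-346, a difference of 0.23 ± 0.05 (adjusted p = 0.0462). Lrrc40, a protein with leucine-rich repeats, was at 7.12 to 7.44 with vehicle and 7.49 to 7.67 with ATB-346, a difference of 0.29 ± 0.06 (adjusted p = 0.0462). Its wild-type arrays, at 7.42 to 7.58, lay nearer to those given ATB-346.

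The nuclear genes Rbmx and Tor1aip1 and the mitochondrial gene Fbxl4 also rose. Rbmx, an X-linked RNA-binding protein of the splicing machinery, was 0.40 ± 0.08 higher (adjusted p = 0.041), although vehicle replicate 1, at 9.24, lay above the lowest ATB-346 array, at 9.18. Tor1aip1, an inner nuclear membrane protein that activates torsins, was 0.25 ± 0.05 higher (adjusted p = 0.0462). Fbxl4, an F-box protein that restrains the removal of mitochondria, was at 8.23 to 8.61 with vehicle and 8.56 to 8.77 with ATB-346, a difference of 0.28 ± 0.06 (adjusted p = 0.0426). Their cohort shifts lay between -0.19 and 0.15.

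A further set of rises sat on a cohort shift in the same direction. Ndufb5, an accessory subunit of respiratory complex I, was at 9.43, 9.34, 9.16 and 9.32 on the first 4 vehicle arrays and at 9.93, 9.89, 9.80 and 9.94 on the first 4 ATB-346 arrays. In the second cohort it was at 10.60, 10.75, 10.61 and 10.74 with vehicle and at 10.94 and 10.91 with ATB-346. The arrays separated within each cohort, and the step between cohorts, 1.24, was larger than the difference with the drug, 0.45 ± 0.06 (adjusted p = 0.00254). The difference was 0.58 in the first cohort and 0.25 in the second.

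Other members of this set had the same form. Mccc1, a subunit of the carboxylase that breaks down leucine, rose by 0.35 (adjusted p = 0.0348), Nfu1, which delivers iron-sulfur clusters in mitochondria, by 0.38 (adjusted p = 0.0474) and Rack1, a scaffold on the small ribosomal subunit, by 0.37 (adjusted p = 0.0426). Dazap2, a small proline-rich protein, rose by 0.34 (adjusted p = 0.0426). Their cohort shifts were 0.98, 1.10, 1.12 and 0.72. Slc25a17, the carrier of cofactors into peroxisomes, rose by 0.25 (adjusted p = 0.0426) on a shift of 0.39. With 4833420G17Rik and LOC100046796, whose probe is assigned to Polr2k, a subunit of RNA polymerases, 7 of the 17 rises had a cohort shift over 0.5. Both names are given outside the rule for named genes, as are LOC100044170, a rise read by a probe assigned to Xrcc4, and LOC100044324, a fall that could not be matched to a probe.

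These targets moved with a wider pattern between arrays. Among all targets, 636 were over 0.5 higher in the second than in the first cohort of the naproxen arrays, a step read without the vehicle and ATB-346 arrays, although the naproxen arrays do enter the fit through the block. Their median difference was 0.13 with ATB-346, 0.21 in the first cohort and 0.01 in the second, and 88.1% had a higher mean, against 54.2% of all targets. The 176 targets over 0.5 lower in the second naproxen cohort had a median of -0.15, and 25.6% of them had a higher mean. The mean of the 636 targets was 8.12 to 8.16 on the first vehicle arrays and 8.28 to 8.40 on the first ATB-346 arrays. The naproxen arrays of that cohort, at 8.13 to 8.24, and the wild-type arrays, at 8.10 to 8.29, lay across the gap. In the second cohort the means were 8.84 to 9.08 with vehicle and 8.94 and 8.95 with ATB-346. With this mean added to the model 15 targets were called, 12 higher and 3 lower. The part of the pattern in the rises of Ndufb5, Mccc1, Nfu1, Rack1 and Dazap2 was otherwise not tested.

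**Figure D4:**
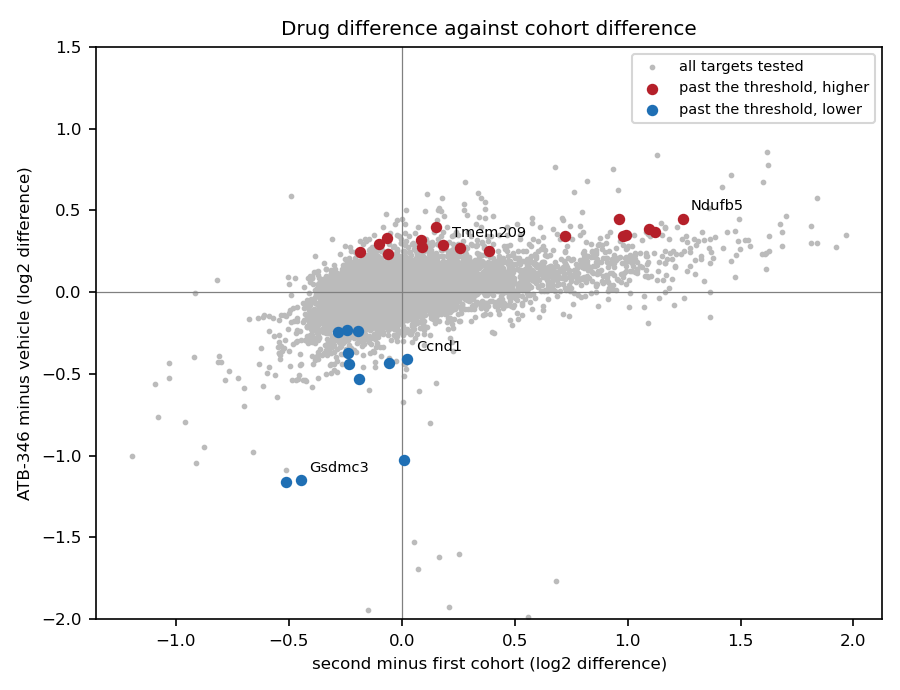
The horizontal axis is the log2 difference between the second and the first cohort, the vertical axis the log2 difference between ATB-346 and vehicle, both from the same fit, so their errors are not independent. Grey points are the targets tested, red points the 17 called higher and blue points the 11 called lower, and 23 targets lie outside the vertical axis. Ndufb5 and 6 other red points lie to the right of 0.5, and Tmem209 and Ccnd1 lie near 0.

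Subunits of oxidative phosphorylation had mostly higher means. Of 34 tested, 29 had a higher mean, 15 at an unadjusted p under 0.05, and Ndufb5 was the 1 call, against 54.2% and 7.89% of all targets. The median was 0.11 in each cohort and 0.03 with the acinar mean of each array in the model. Cox6c, a subunit of cytochrome oxidase, differed by 0.34 ± 0.08 (adjusted p = 0.0636), Sdhd, an anchor of succinate dehydrogenase, by 0.37 and Atp5a1, the alpha subunit of ATP synthase, by 0.46 (adjusted p = 0.0989 and 0.127). Cox6c and Sdhd had cohort shifts of 0.62 and 1.68, and Sdhd differed by 0.55 in the first cohort and 0.11 in the second.

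Digestive enzymes of the pancreas gave the largest differences of any list, without a call. All 24 tested acinar targets had a lower mean with ATB-346, 21 at an unadjusted p under 0.05, with a median of -2.97 and a smallest adjusted p of 0.104. Over all targets the shares were 45.8% and 5.5%. Cela2a, an elastase, was at 6.07, 14.34, 12.83 and 9.61 on the first 4 vehicle arrays and at 8.10, 7.11, 14.90 and 12.48 on the others. With ATB-346 it was at 6.08 to 6.49, close to the lowest normalized value. Vehicle replicate 1 had no more of it than the ATB-346 arrays, and the others held from 7.11 to 14.90. In 19 of the 24 the ATB-346 mean lay under the filter level, so these passed through other arrays and the count is no support for a drug difference. The other 5, named outside the rule for named genes, were Spink1, Sycn, Cela1, Clps and Pnliprp2, with ATB-346 means of 13.30, 12.75, 11.36, 10.36 and 6.89 and differences of -0.50, -0.51, -0.98, -1.62 and -2.34. The acinar list mean was low on the wild-type arrays as well, at 7.04 to 7.57, beside 6.94 to 7.31 with ATB-346. With the acinar mean of each array added to the model, 1 target was called.

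**Figure D5:**
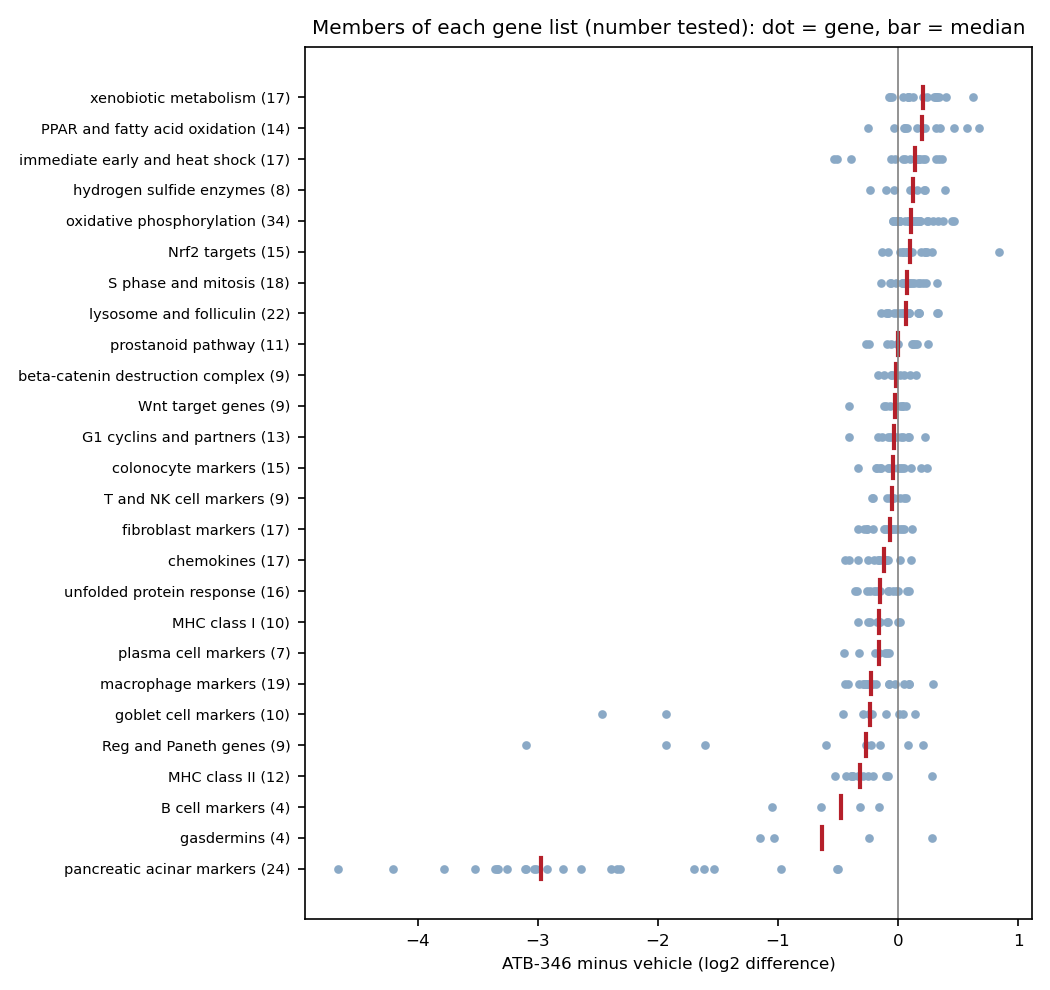
Each point is 1 tested member of a list, placed by its log2 difference between ATB-346 and vehicle, and the red bar is the median of the list, with the number tested in brackets. The acinar markers spread from -4.66 to -0.50. The medians of the other lists drawn lie between -0.64 for the gasdermins and 0.21 for xenobiotic metabolism.

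Secreted products of the epithelium varied widely within the groups. Of 10 tested goblet cell genes 7 had a lower mean (45.8% over all targets), with a median of -0.23. Retnlb, a goblet cell antimicrobial, was at 9.85 to 14.79 with vehicle and 8.53 to 13.68 with ATB-346, a difference of -2.46 ± 1.05 (adjusted p = 0.304). The Reg and Paneth list had a median of -0.27 over 9 tested members, 2 of them with an ATB-346 mean under the filter level. Its member Ang4, a microbicidal ribonuclease, was at 10.12 to 14.63 with vehicle and 9.00 to 13.97 with ATB-346. Neither gene separated the groups. Genes of the unfolded protein response had a lower mean in 14 of 16 (45.8% over all targets), with a median of -0.15 and 0 calls. Pdia4, a disulfide isomerase, differed by -0.36 ± 0.11 (adjusted p = 0.163). Immediate early and heat shock genes had a median of 0.14, with 0.16 in the first cohort and -0.08 in the second, and their members Hspa8 and Hsph1 differed by -0.51 and -0.54. Fibroblast genes had a median of -0.07, 0.09 in the first cohort and -0.42 in the second.

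Lists tied to the action of the drug gave no call. The 11 tested prostanoid genes had a median of 0.00 and differences from -0.27 to 0.25. Ptgs1 was at 7.54 ± 0.41 with vehicle and 7.56 ± 0.42 with ATB-346 (difference 0.14 ± 0.10, adjusted p = 0.612). Ptgs2 was not tested because it lay near the lowest value, at 5.94 ± 0.05 and 5.96 ± 0.05. The prostaglandin receptor gene Ptger3 differed by 0.16. The 95% interval for Ptgs1 ran from -0.07 to 0.35, which bounds the size of any difference in its transcript.

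Among 8 tested genes of hydrogen sulfide synthesis and oxidation, the median was 0.13, 5 had a higher mean (54.2% over all targets) and 0 were called. Sqor, the mitochondrial enzyme that starts sulfide oxidation, was 0.39 ± 0.13 higher in mean (adjusted p = 0.185), on a cohort shift of 1.17. The synthesis genes Cth, Cbs and Mpst differed by 0.22, -0.10 and 0.10, all with an adjusted p above 0.05. Cth was at 7.89 ± 0.33 with vehicle and 8.04 ± 0.31 with ATB-346.

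Nrf2 targets, which respond to oxidants and electrophiles, had a higher mean in 13 of 15 tested members, a median of 0.10 and 0 at an unadjusted p under 0.05. Over all targets 54.2% had a higher mean and 13.4% had such a p. Gsta1, a glutathione transferase, had the widest difference, 0.84 ± 0.49, and did not pass (adjusted p = 0.501). Genes of PPAR action and fatty acid oxidation had a median of 0.20 over 14 and those of xenobiotic metabolism one of 0.21 over 17, each with 0 calls. With the acinar mean of each array in the model, the medians for hydrogen sulfide genes, Nrf2 targets, PPAR genes and xenobiotic genes were -0.05, -0.03, -0.001 and -0.05, so the sign of each turned.

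Naproxen was given at another dose than ATB-346, 10 mg/kg, and the 2 drugs were compared with the same vehicle arrays, so their differences from vehicle are not independent. Naproxen against vehicle gave 0 calls and 1122 targets (12.4%) at an unadjusted p under 0.05, and ATB-346 against naproxen gave 0 calls (smallest adjusted p = 0.115) and 952 (10.5%). Ccnd1 was at 10.53, 10.68, 10.51 and 10.65 on the first 4 naproxen arrays and at 10.74 and 10.85 on the others, all above the ATB-346 arrays, and ATB-346 minus naproxen was -0.48 ± 0.09 (adjusted p = 0.115). Fbxl4 was 0.32 ± 0.06 higher with ATB-346 than with naproxen (adjusted p = 0.115) and Tmem209 0.18 ± 0.04 (adjusted p = 0.177). Yipf2 was at 7.59 ± 0.13 with ATB-346 and 7.58 ± 0.18 with naproxen, a difference of 0.01 ± 0.06. Gsdmc3 differed by -0.34 ± 0.23 between ATB-346 and naproxen. None of these differences between the drugs passed the adjusted threshold. Several lists that were lower with ATB-346 were lower in median with naproxen too, against the same vehicle arrays. The naproxen medians were -0.18 for class II (12 of 12 lower), -0.10 for macrophage (15 of 19) and -0.44 for B cell markers. For goblet cell and acinar markers (24 of 24 lower) they were -0.25 and -2.09. Over all targets 4251 of 9048 were lower. The acinar list mean lay between 7.14 and 13.87 on the vehicle arrays and between 6.95 and 9.88 on the naproxen arrays. The filter used the high vehicle arrays too, so the acinar count is no support for a difference with naproxen either. The naproxen medians of class I, unfolded protein response and T and NK cell genes were -0.02, -0.03 and 0.16.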

How the data were processed

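Total RNA of mouse colon was hybridised to 24 Illumina MouseRef-8 v2.0 arrays. Per the file headers, GenomeStudio 1.7.0 gave the average bead intensity of 18097 targets in the deposited gene table, and the authors applied no normalization. A second deposited table, the series matrix, holds probe intensity for 25697 probes and served as an alternative. It is no independent measurement, since 98.9% of the values of 9359 single-probe genes lay within 0.05 units of those in the gene table. Background subtraction in GenomeStudio is not stated in the sources at hand.

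Intensities, from 41.6 to 36652.2, were background-corrected (normexp, offset 50), quantile-normalized and set to log2. Targets with a mean above the median of all targets (6.54) were tested, 9048 in all. A linear model (limma 3.58.1, R 4.3.3) with a mean per group and the cohort as a block was fitted to all 24 arrays. The threshold for a call was a p under 0.05 after Benjamini-Hochberg adjustment. Within-cohort differences and their test came from a fit with a mean per group and cohort. The number of arrays limits the precision. Of the targets, 14096 were named by symbol and 3025 by synonym through RefSeq, and 976 kept the file's name. Simulated data were used to test the fit.

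The groups, the block, the 50 gene lists and the naming rule were set up with earlier results of these data known. Of these lists, 26 are described. The rule takes every called target except predicted names, in each list described the members of smallest p (at most 4), every tested class II and gasdermin gene, and Apc, Ctnnb1, Myc, Ccnd1, Ptgs1, Ptgs2, Cbs, Cth and Mpst. Alternatives changed the block, the arrays in the fit, the normalization, the background, the filter, the weights, the file and the covariates, and left out each of the 14 arrays in turn. RefSeq promoter windows (GRCm38.p6) were searched on both strands.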

Additional observations from a re-analysis of the deposited data

Results flagged for a closer look

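Among 314 groups of 6 or 8 arrays, 15 held 1 array whose gap to the nearest other array was a large share of the group's range (above Dixon's 95% critical value for that ratio). Chance alone marks about 1 in 20 groups. In the ATB-346 group, Gsdmc3 stood at 10.3 on replicate 4 against 8.71 to 9.30 on the others (ratio 0.631). Replicate 4 was also apart for Fcmr, a B cell receptor for IgM, at 7.62 against 6.22 to 6.74 (0.633). The pancreatic lipase-related gene Pnliprp1 stood at 7.46 there against 6.15 to 6.44 (0.782), and Ephb2 was lowest there at 8.52 against 8.76 to 8.86 (0.697). Cela2a, another acinar gene, was high on replicate 1, at 6.49 against 6.08 to 6.16 (0.802). Itln1, a goblet cell lectin, stood at 8.53 on replicate 3 against 6.59 to 7.20 (ratio 0.686).

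Single ATB-346 arrays were also apart for 4 other genes. Aif1 was low on replicate 6, at 6.89 against 7.26 to 7.43 (0.676), and the called gene Capza1 was low on replicate 3, at 7.52 against 7.74 to 7.86 (0.650). Ccl19 was high on replicate 2, at 6.71 against 6.38 to 6.50 (0.630), and Prdx1 was high on replicate 5, at 13.01 against 12.60 to 12.75 (0.646).

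In the vehicle group, replicate 7 was highest for the fibroblast list mean, 10.12 against 9.61 to 9.85 (0.532), and for Col1a1, 9.26 against 8.50 to 8.82 (0.580). It was lowest for the called gene Mcrs1, 7.27 against 7.46 to 7.62 (0.554). Vehicle replicate 1 had a mean of 7.82 over the Reg and Paneth cell genes against 8.98 to 9.50 on the other vehicle arrays (0.694). Vehicle replicate 4 was lowest for the destruction complex mean, 7.96 against 8.02 to 8.07 (0.562).

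For 5 genes the ATB-346 difference had opposite signs in the first and second cohorts, with every ATB-346 array on that side of its cohort's vehicle mean, and the contrast between cohorts was not called in the fit over all targets. The difference between cohorts was 1.12 for Cxcl13 (-0.62 and 0.49), -0.56 for Rrm1 (0.45 and -0.11), -0.37 for Ctnnb1 (0.30 and -0.07), 0.29 for Ifi30 (-0.22 and 0.07) and 0.25 for Sdc1 (-0.20 and 0.04).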

How the results depend on the processing

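The count of 28 called targets between ATB-346 and vehicle depended on the processing. It stayed within 1.5 times under cyclic loess (31), without normexp (28), with an offset of 16 (25), without a filter (19), with a trended and robust prior (27) and with array weights (28). It was 0 without the cohort block (632 targets at an unadjusted p under 0.05) and 0 in a fit to the second cohort alone (468). It was 16 in a fit to the first cohort alone (14 higher, 2 lower), where the fit to all arrays with a mean per group and cohort gave 17, 2 with only the groups compared, 12 without wild-type arrays (9 higher, 3 lower), 8 with median scaling (all higher), 16 with a filter at the 75th percentile (9 higher, 7 lower) and 17 with probe values (11 higher, 6 lower). It was 1 with the acinar mean in the model, 53 with each array's level of the transcription factor gene Osr2 (30 higher, 23 lower), 5 without vehicle replicates 1 and 2 and 15 with the mean of cohort-shifted targets, an alternative added after seeing the data. Leaving out 1 array gave 3 to 34. With a replicate block it was 6, but the numbers do not pair the samples: same-numbered deviations correlated at -0.59 to 0.40, and 2 of 6 ATB-346 arrays correlated best with their own number. The causes were not tested, beyond fewer arrays or other targets being tested where an alternative says so.

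Naproxen against vehicle gave 3 calls with only the groups compared, 16 with array weights and 0 to 1 without 1 array. ATB-346 against naproxen gave 1 with the cohort-shifted mean and 0 to 1 without 1 array. The contrast between cohorts gave 0 to 2. No called gene changed sign, and Tmem209 and Ndufb5 passed without any 1 array. Of 3255 values for 103 uncalled genes, 13 kept their sign and passed the threshold, and 29 changed sign. Those in the second cohort were Cxcl13 (0.49), Rrm1 (-0.11), Cd3d (0.095), Ifi30 (0.073), Ctnnb1 (-0.066), Rb1 (-0.065), Cd3g (0.041), Sdc1 (0.042), H2-Oa (0.026), Calr (0.032), Nkg7 (0.032) and Xbp1 (0.012), and in the first, Lum (0.0023). Cdh17 turned without the block (-0.028) and Nkg7 with array weights (0.022). With the acinar mean, Gsdme (-0.16), Krt20 (-0.041) and Prdx1 (-0.032) turned. With the cohort-shifted mean, Cxcl13 (0.13), Krt20 (-0.026), Gsdme (-0.024), Mcm6 (-0.016) and Ctnnb1 (-0.0026) turned. Without 1 array, Cxcl13 ranged from -0.35 (without ATB-346 replicate 6) to 0.023 (without vehicle replicate 1) and also turned without vehicle replicate 2 (0.00053). Nkg7 ranged from -0.17 to 0.0068 (without vehicle replicate 4), and H2-Aa reached 0.055 (without ATB-346 replicate 6). Without vehicle replicates 1 and 2, Cxcl13 (0.28) and H2-Aa (0.11) turned. Probe values were run for counts and called genes only. Targets near the floor of 5.65 carry little signal over background.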
